A study of Drosophila melanogaster with 12 samples.

Results

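The transcription factors described here are 6 genes that keep or direct the progenitor state of the adult fly gut, namely esg (escargot), sna (snail), zfh2, Sox100B, Sox21a and klu (klumpfuss). They were chosen for their known roles, with earlier results of these data in view. Symbols were matched to the FlyBase identifiers of the count table, which held 8802 genes, and 5 of the 6 factors had a row. The identifier that the annotation gives for esg had none, and 116 rows, which may include an older identifier of esg, carried identifiers with no symbol in the annotation and were not assigned to a gene. The RNA of esg itself was therefore not analysed here. All 5 factors with a row passed the filter on low counts, as did 8069 genes in all.

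RNA was measured by sequencing in enteroblasts sorted from the posterior midgut (regions R3 to R5) of virgin female flies, to find the genes that depend on the transcription factor Shavenbaby (Svb), which the gene ovo encodes. Each library came from a pool of more than 20 flies, and 12 libraries fell into 4 genotypes with 3 replicates made on different calendar days. The flies were 9 days old and had spent their last 6 days at 29 °C, the temperature that inactivates the Gal80 repressor and lets Gal4 act. Every group carried 1 copy of esg-Gal4, UAS-GFP and 1 of tubGal80TS, so the promoter of esg, a factor of the set, drove both the GFP that marked the cells for sorting and every transgene. Ctrl flies came from a cross of this line with wild-type Canton-S and had no transgene beyond those shared ones. RNAiSvb carried tubGal80TS/UAS-SvbRNAi, a hairpin against svb. SvbAct carried tubGal80TS/UAS-SvbACT::GFP, a GFP-tagged constitutively active form of the protein. SvbRep carried tubGal80TS/UAS-Svb3Kmut::GFP, whose label names the constitutive repressor form. The sort kept cells with high GFP and large size, and the transgenes were active in every esg-expressing cell, which includes intestinal stem cells as well as enteroblasts.

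Intestinal stem cells of the fly renew themselves and give rise to enteroblasts, which mature into absorptive enterocytes, or to the precursors of hormone-secreting enteroendocrine cells. Escargot, a zinc finger repressor of the Snail family, holds stem cells and enteroblasts in the undifferentiated state, and its loss lets them differentiate. Klumpfuss and the Sox factors act in the enteroblast, where they restrict its fate or allow it to mature. Svb is made as a repressor and is turned into an activator when the proteasome trims its end.

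Library totals ran from 2186283 to 7444253 counts. SvbRep replicate 3 stood apart, with the lowest total and no count for 1013 of the 8802 genes (11.5%). The lowest rank correlation within a group was that between it and SvbRep replicate 1 (Spearman's rho 0.921). SvbAct replicates 2 and 3 lacked counts for 10.6% and 10.2% of genes, and the other libraries for between 3.39% and 6.18%. The RNA of ovo was not lower in the libraries labelled RNAiSvb, where it was 32.4 ± 25.0 CPM (counts scaled to a common library total; SD, n = 3) against 6.29 ± 8.76 in Ctrl, with an adjusted p of 0.179. The Ctrl libraries held only 9, 117 and 1 counts of ovo, so a fall could hardly be seen and the knockdown cannot be judged from these counts. The RNA of ovo was 2215 CPM in SvbAct and 1433 CPM in SvbRep, where the transgenes add to it. Directions drawn from RNAiSvb below are therefore those of libraries so labelled. Ctrl alone lacked both hairpin and Svb transgene, so a strain background shared by the other crosses and the transgenes cannot be told apart in comparisons with it.

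Per kilobase of exon, 4 of the 5 factors were among the most abundant transcripts of control enteroblasts and sna was close to absent. In Ctrl the level was 318.6 CPM per kb for Sox100B, 219 for zfh2, 164 for klu and 138 for Sox21a, which placed them at percentiles 97.9, 96.9, 95.9 and 95.1 of the 7956 tested genes with a known exon length. For sna it was 1.09 CPM per kb, at percentile 8.3. In SvbRep the level of sna reached 28.8 CPM per kb, at percentile 73.4.

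**Figure D1:**
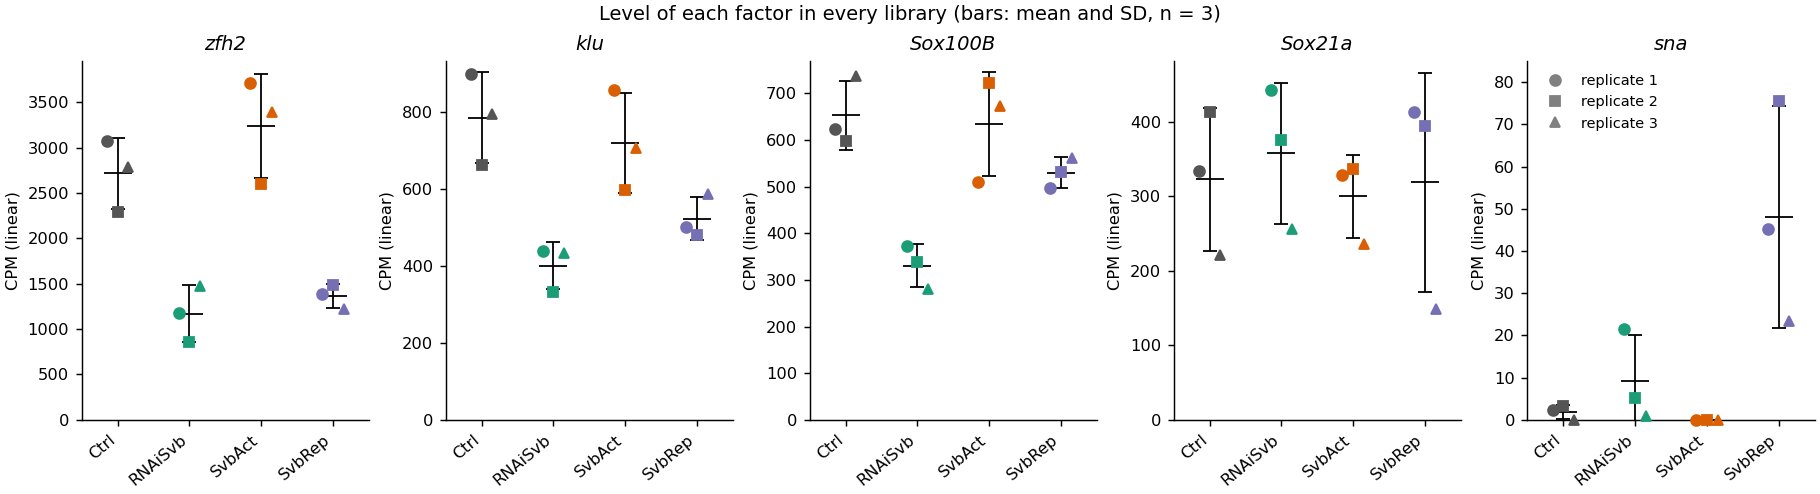
Level of each factor in CPM (linear axis, a scale of its own for each gene) in every library, by genotype. Points are libraries, their shape gives the replicate number, and bars show the mean and SD of 3 replicates. For zfh2, klu and Sox100B the RNAiSvb libraries lie below all Ctrl and SvbAct libraries, while sna lies at 0 in the 3 SvbAct libraries and between 23.4 and 75.7 CPM in SvbRep.

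zfh2 (FBgn0004607) encodes a large protein with zinc fingers and homeodomains that is known from patterning of the fly wing and leg. It lies on chromosome 4, at bases 501810 to 540874 of the plus strand in the dm6 coordinates, and its exons cover 12.424 kb. In Ctrl the 3 libraries held 3073, 2294 and 2788 CPM (mean 2718 ± 394.4, SD). In RNAiSvb they held 1177, 854.5 and 1480 CPM (mean 1171 ± 313). All 3 RNAiSvb libraries lay below all 3 Ctrl libraries. The level of zfh2 fell by 1.22 on the log2 scale (SE 0.22, 2.32-fold lower, adjusted p = 0.0015 by edgeR's quasi-likelihood test). In a sample of sorted cells, fewer cells with high zfh2 and less zfh2 RNA per cell cannot be told apart, which holds for every difference given here.

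The repressor form went with a similar level of zfh2. The SvbRep libraries held 1387, 1484 and 1226 CPM (mean 1366 ± 130), again below every Ctrl library. The fall from Ctrl was 0.99 on the log2 scale, written as a log2 fold change of -0.99 ± 0.22 (SE), or 1.99-fold, with an adjusted p of 0.0224. This call was lost when the fit held only the 6 libraries of these groups (adjusted p = 0.0566). It was also lost when Ctrl replicate 1 (0.171), Ctrl replicate 3 (0.105) or any single SvbRep library (0.0513 to 0.0944) was left out, and without the outlying SvbRep replicate 3 the log2 fold change was -0.88. The fit blocked by replicate number gave 0.00754, and the 20 alternative settings ranged from 0.00135 to 0.171. SvbRep did not differ detectably from RNAiSvb, with a log2 difference of 0.22 (95% interval -0.24 to 0.68, adjusted p = 0.625).

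With the activator form, zfh2 did not differ detectably from Ctrl. The SvbAct libraries held 3710, 2598 and 3395 CPM (mean 3234 ± 573.4), a range that overlapped that of Ctrl, and the log2 difference from Ctrl was 0.25 (95% interval -0.21 to 0.71, adjusted p = 0.65). All SvbAct libraries lay above all SvbRep and RNAiSvb libraries. SvbAct exceeded SvbRep by 1.24 ± 0.22 (SE) on the log2 scale, with an adjusted p of 0.00161. It exceeded RNAiSvb by 1.47 ± 0.22, with an adjusted p of 0.000287. Both calls held in each of the 12 fits that left out 1 library. From high to low, the group means of zfh2 ran SvbAct, Ctrl, SvbRep, RNAiSvb, and the 95% intervals of the differences within the first pair and within the last pair held 0.

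Exons of zfh2 overlap those of Tdg, a DNA repair gene on the opposite strand, over 2325 bases, and the use of strand in counting is not given in the sources used here. Tdg was far lower, at 373.4 CPM in Ctrl, 538.1 in RNAiSvb, 357.9 in SvbAct and 301.3 in SvbRep. Its order among the groups was not that of zfh2. Its only call was between SvbRep and RNAiSvb (log2 fold change -0.83, adjusted p = 0.0259), a pair between which zfh2 had no call.

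klu (FBgn0013469) encodes a zinc finger repressor that responds to Notch in enteroblasts and keeps them from the enteroendocrine fate. It lies on chromosome arm 3L, at bases 10981171 to 11009188 of the minus strand. The Ctrl libraries held 898.6, 661.7 and 796.1 CPM (mean 785.5 ± 118.8), and the RNAiSvb libraries held 438.5, 331.2 and 432.9 CPM (mean 400.9 ± 60.4). The groups did not overlap, and klu fell by 0.97 on the log2 scale (SE 0.20, 1.96-fold lower, adjusted p = 0.00394). This call held in each of the 12 fits without 1 library, with adjusted p-values up to 0.0447.

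In SvbAct, klu stood at 857, 597.4 and 705.6 CPM (mean 720 ± 130.4), overlapping Ctrl. The log2 difference from Ctrl was -0.13 (95% interval -0.54 to 0.29, adjusted p = 0.847). SvbAct exceeded RNAiSvb by 0.84 ± 0.20 (SE) on the log2 scale, with no overlap and an adjusted p of 0.011. That call was lost without RNAiSvb replicate 2 (adjusted p = 0.0832) or without SvbAct replicate 1 (0.0567).

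SvbRep lay between the other groups for klu, at 500.9, 481.4 and 586.5 CPM (mean 523 ± 55.9). Its libraries overlapped those of no other group, yet none of its differences passed the test. They were -0.59 on the log2 scale against Ctrl (95% interval -1 to -0.17, adjusted p = 0.17), and 0.38 against RNAiSvb (95% interval -0.03 to 0.80, adjusted p = 0.284). SvbAct exceeded SvbRep by 0.46 (95% interval 0.05 to 0.88, adjusted p = 0.202).

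Sox100B (FBgn0024288) is the fly relative of vertebrate Sox8, Sox9 and Sox10 and is needed in the gut for enteroblasts to differentiate. It lies on chromosome arm 3R, at bases 31065253 to 31083407 of the plus strand. In Ctrl it stood at 623, 598.2 and 737 CPM (mean 652.7 ± 74.0), and in RNAiSvb at 373.3, 338.6 and 280.3 CPM (mean 330.7 ± 47.0). Again the groups did not overlap. Sox100B fell by 0.98 on the log2 scale (SE 0.19, 1.97-fold lower, adjusted p = 0.0024), and the call held without any 1 library.

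SvbRep, at 496.4, 530.4 and 562.2 CPM (mean 529.7 ± 32.9), lay below every Ctrl library of Sox100B and above every RNAiSvb library. The difference from Ctrl was -0.30 on the log2 scale (95% interval -0.70 to 0.09, adjusted p = 0.565). The excess over RNAiSvb was 0.68 ± 0.19 (SE), with an adjusted p of 0.0314. That call was lost in 6 of the 12 fits that left out 1 library. These were the fits without Ctrl replicate 2 (adjusted p = 0.0501), without any single RNAiSvb library (0.0565, 0.0843 and 0.179), and without SvbRep replicate 2 (0.0909) or the outlying SvbRep replicate 3 (0.0555). It was also lost in the fit of these groups alone (0.0748).

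SvbAct, at 509.5, 721.9 and 672.6 CPM (mean 634.7 ± 111.1), overlapped both Ctrl and SvbRep for Sox100B. The log2 difference from Ctrl was -0.04 (95% interval -0.44 to 0.36, adjusted p = 0.949), and that from SvbRep was 0.26 (95% interval -0.14 to 0.66, adjusted p = 0.516). Over RNAiSvb, SvbAct was higher by 0.94 ± 0.19 (SE) on the log2 scale, with no overlap and an adjusted p of 0.00325. The order of the group means was Ctrl, SvbAct, SvbRep, RNAiSvb for both Sox100B and klu.

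Sox21a (FBgn0036411), the other Sox factor of the set, is needed for stem cell division and for enteroblasts to become enterocytes. It lies on chromosome arm 3L, at bases 14103481 to 14108118 of the minus strand. Its libraries held 334.2, 413 and 221.6 CPM in Ctrl and 442.6, 376.3 and 255.8 CPM in RNAiSvb. They held 328.4, 336.9 and 235.9 CPM in SvbAct and 413, 394.5 and 149.4 CPM in SvbRep. All groups overlapped, with means between 300.4 and 358.2 CPM.

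No comparison of Sox21a passed the test, with adjusted p-values from 0.74 to 0.995. The log2 difference of RNAiSvb from Ctrl was 0.15 (95% interval -0.58 to 0.88), so the interval does not hold a fall of the size measured for zfh2, klu and Sox100B. Whether Sox21a differed from those factors in its response was not tested. Replicate 3 was the lowest library of Sox21a in all 4 groups, which held for 3.09% of the 7777 genes without ties. For klu it was replicate 2 in all 4 groups, which held for 1.86% of them.

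**Figure D2:**
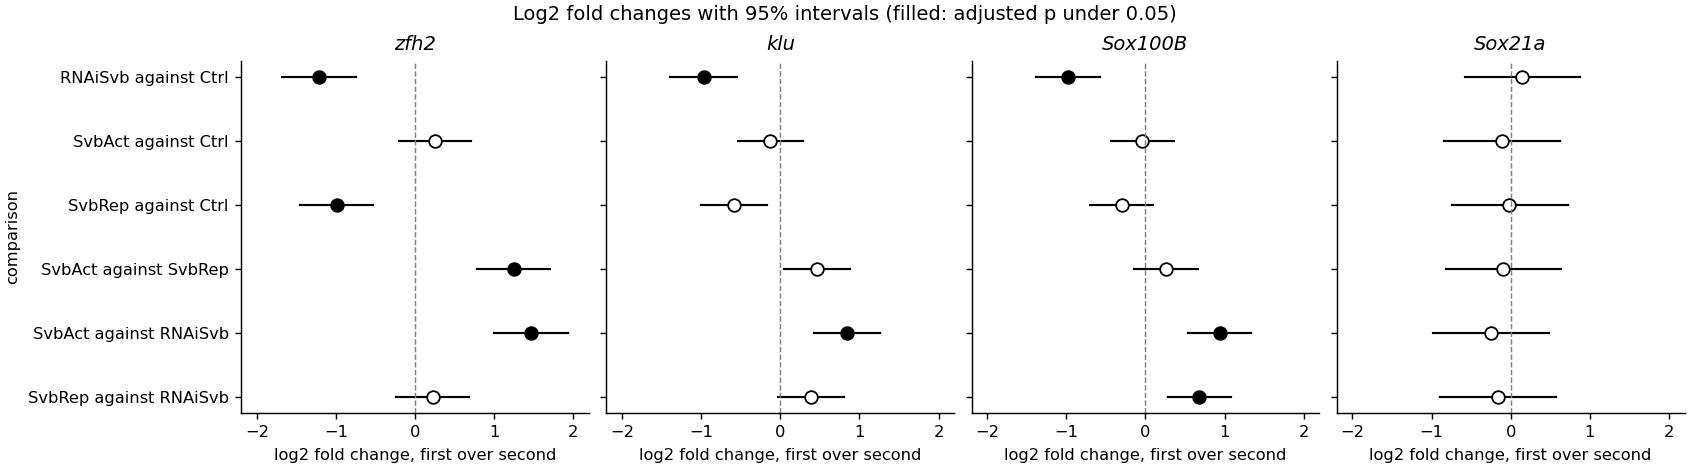
Log2 fold change of zfh2, klu, Sox100B and Sox21a in the 6 comparisons, the first group over the second, with 95% intervals from the fit to all 12 libraries. Filled points have an adjusted p under 0.05. For RNAiSvb against Ctrl, the filled points of zfh2, klu and Sox100B lie at -1.22, -0.97 and -0.98 while Sox21a lies at 0.15, and no point is filled for SvbAct against Ctrl.

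sna (FBgn0003448) encodes the founding repressor of the Snail family, known for the specification of the mesoderm and the movement of its cells in the fly embryo, and it is a close relative of esg. It lies on chromosome arm 2L, at bases 15476593 to 15478260 of the minus strand, and its single exon overlaps no annotated gene. In SvbRep its libraries held 297, 599 and 50 counts, or 45.1, 75.7 and 23.4 CPM (mean 48.0 ± 26.3). In Ctrl they held 9, 23 and 0 counts, or 2.25, 3.21 and 0 CPM (mean 1.82 ± 1.65). All SvbRep libraries lay above all Ctrl libraries.

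The difference of SvbRep from Ctrl did not pass the test for sna. On the log2 scale sna was higher by 4.61 ± 1.15 (SE), at an adjusted p of 0.0882. In the fit blocked by replicate number the difference was 4.99, at an adjusted p of 0.00442. It passed also with DESeq2 (0.0265), with the 6 libraries of these groups alone (0.0121) and without robust estimation (0.026). Leaving out the outlying SvbRep replicate 3 gave 4.95 and an adjusted p of 0.137. The 20 settings ranged from 0.00442 to 0.301.

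In SvbAct no library held a single count of sna, over 16048668 counts in all. A count of 0 allows up to 3 counts, which is between 0.497 and 0.713 CPM in these libraries. Against the SvbRep mean, sna was at least 81.1-fold lower with the 3-count limit taken in each SvbAct library. This limit covers counting error in SvbAct but not the spread of SvbRep, and it was 57.8-fold without SvbRep replicate 2. The adjusted p was 0.00886. The call held in each of the 12 fits without 1 library (0.00157 to 0.0308), with a value of 0.0262 without SvbRep replicate 3.

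In RNAiSvb, sna stood at 69, 32 and 6 counts, or 21.6, 5.25 and 0.953 CPM (mean 9.28 ± 10.9). Replicates 1 and 2 lay above every Ctrl library and replicate 3 within their range. The log2 difference of RNAiSvb from Ctrl was 2.16 (95% interval -0.35 to 4.67, adjusted p = 0.354). SvbRep exceeded RNAiSvb by 2.45 (95% interval 0.17 to 4.73, adjusted p = 0.197), with no overlap.

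SvbAct was at least 15.7-fold lower than the RNAiSvb mean for sna, with an adjusted p of 0.0379. Without RNAiSvb replicate 1 the limit was 5.23-fold and the call was lost (adjusted p = 0.0579). The call held in 4 of the 12 fits without 1 library, where the adjusted p ranged from 0.00851 to 0.1, and was lost without the filter on low counts (0.054). Without SvbRep replicate 3 it was 0.0681. With only SvbAct and RNAiSvb in the fit, sna did not pass the filter on low counts. The test of sna here therefore relied on libraries of other groups. Against Ctrl, where replicate 3 also held no count, the groups overlapped and the adjusted p was 0.225. At an unadjusted p of 0.0296 this was the only factor of the set under 0.05 in that comparison.

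Across the set, the counts of calls differed between comparisons, which share libraries and are not independent of each other. In RNAiSvb against Ctrl, 3 of the 5 factors were called, all lower, where 8.5% of all genes tested were called and 6.66% were called lower. The same 3 factors were those whose groups did not overlap, as was the case for 31.1% of all genes. The median log2 fold change was -0.97 over the 5 factors and 0.02 over all genes. In SvbAct against Ctrl, 0 of 5 were called by edgeR's quasi-likelihood test, 1 had an unadjusted p under 0.05, and DESeq2 called 1 (sna, adjusted p = 0.034). The share of all genes called there was 4.46%, and the groups overlapped for all 5 factors, while they did not for 23.2% of genes.

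In SvbRep against Ctrl, 1 of 5 factors was called, zfh2, against 2.08% of all genes called and 1.35% called lower, and 4 of 5 did not overlap, against 18.5% of genes. Without SvbRep replicate 3 the count of called factors was 0. In SvbAct against SvbRep, 2 of 5 were called (7.21% of genes), zfh2 higher (3.53% of genes) and sna lower (3.68% of genes), and 3 of 5 did not overlap (20.8% of genes). In SvbAct against RNAiSvb, 4 of 5 were called (8.24% of genes), with zfh2, klu and Sox100B higher (5.86% of genes) and sna lower (2.38% of genes), and those 4 did not overlap (28.4% of genes). That count was 3 without SvbRep replicate 3, and sna entered it only because the filter on low counts used all 12 libraries. In SvbRep against RNAiSvb, 1 of 5 was called (8.7% of genes), Sox100B, which was higher (5.68% of genes), and 3 of 5 did not overlap (27.1% of genes). Without SvbRep replicate 3 none was called.

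The authors' deposited table holds calls for 5 of the 6 comparisons. It called the same 3 factors in RNAiSvb against Ctrl, where it called 828 of all 8802 genes. It called the same 2 in SvbAct against SvbRep (805 genes) and the same 4 in SvbAct against RNAiSvb (938 genes). The authors' deposited table also called sna lower in SvbAct than in Ctrl (log2 fold change -6.29) and higher in SvbRep than in Ctrl (4.72), beside zfh2. In those comparisons its calls were more liberal over all genes, with 575 in SvbAct against Ctrl (360 here) and 296 in SvbRep against Ctrl (168 here).

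**Figure D3:**
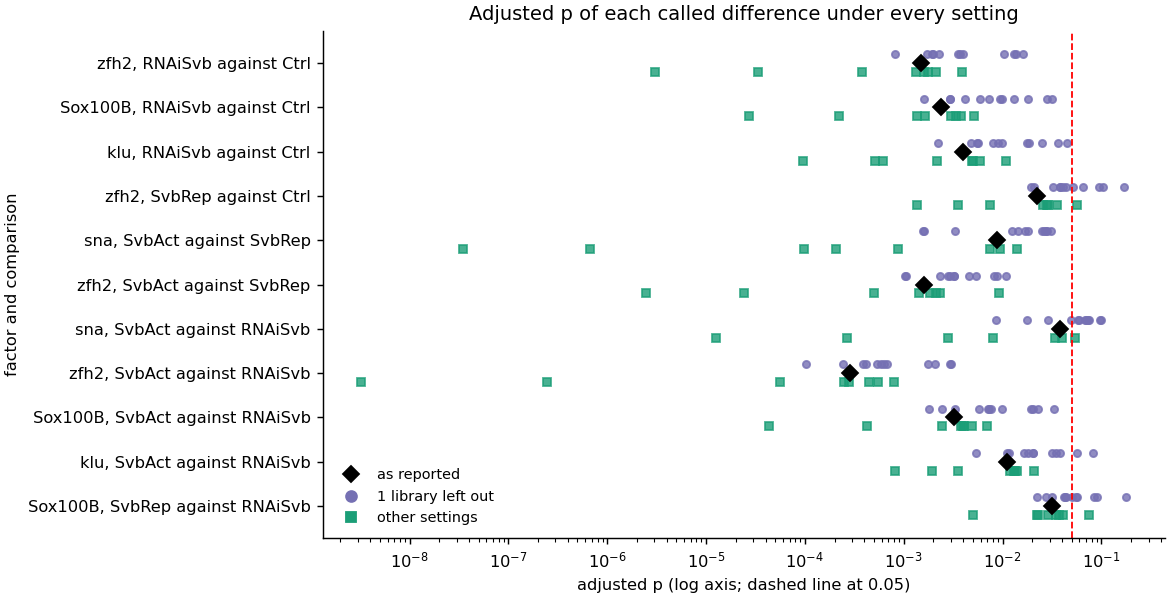
Adjusted p (log axis) of the 11 differences called among the factors, under every setting. Diamonds give the value as reported, circles the fits that left out 1 library and squares the other settings, with the dashed line at 0.05. The zfh2, klu and Sox100B differences between RNAiSvb and Ctrl keep all points left of the line, while zfh2 in SvbRep against Ctrl reaches 0.171.

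Relatives of the factors were few in the table. Of 8 Sox genes 3 had a row, and Sox14, known as a target of the steroid ecdysone, stood at 86.0 CPM in Ctrl, 111.6 in RNAiSvb, 66.0 in SvbAct and 150.9 in SvbRep. Its log2 difference of SvbAct from SvbRep was -1.20 (adjusted p = 0.00152), and from RNAiSvb -0.76 (adjusted p = 0.0303). By current identifiers, sna was the only 1 of 4 Snail family genes with a row, and zfh1 had none. The 4 corepressors that Snail proteins recruit or act with (CtBP, ebi, gro and HDAC1) had no call by edgeR's quasi-likelihood test in any of the 6 comparisons. At most 2 of the 4 had an unadjusted p under 0.05 in a comparison, and DESeq2 called 1 in all, gro in SvbRep against RNAiSvb.

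Of 24 other regulators of gut progenitors, 20 were tested, 7 were called in at least 1 comparison and 13 in none, beside 18.0% of all genes called in at least 1. From 0 to 4 of the 20 were called in a comparison, beside 2.08% to 8.7% of all genes. In RNAiSvb against Ctrl 1 of 20 was called by edgeR's quasi-likelihood test and 4 by DESeq2. Stat92E, the transcription factor of the JAK-STAT pathway, fell from 1685 ± 330.5 CPM to 754.7 ± 74.7 CPM, or -1.16 ± 0.20 (SE) in log2 (adjusted p = 0.00106). In SvbAct it was 1258 CPM, higher than in RNAiSvb by 0.74 on the log2 scale (adjusted p = 0.0291). In SvbRep against Ctrl 0 of the 20 were called by edgeR's quasi-likelihood test, 5 had an unadjusted p under 0.05, and DESeq2 called 1, E(spl)m3-HLH.

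Others of these regulators separated the Svb forms. kay, the fly Fos, was lower in SvbAct (1164 CPM) than in Ctrl (1970 CPM, adjusted p = 0.0239) and than in SvbRep (1994 CPM, adjusted p = 0.0135). Amun, known from the development of sensory bristles, was higher in SvbAct (763.4 CPM) than in Ctrl (463.8 CPM, adjusted p = 0.041) and than in SvbRep (366.3 CPM, adjusted p = 0.00205). The Notch target E(spl)m3-HLH was lower in SvbRep (213.9 CPM) than in SvbAct (509.8 CPM, adjusted p = 0.00427) and than in RNAiSvb (475.6 CPM, adjusted p = 0.00676).

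E(spl)malpha-BFM, also a Notch target, was lower in SvbRep (199.5 CPM) than in RNAiSvb (463.3 CPM, adjusted p = 0.0223). So was emc, an inhibitor of proneural factors (57.4 against 115.3 CPM, adjusted p = 0.0414). The homeobox gene ct was scarce, at 0.0552 CPM in SvbAct, 3.93 in RNAiSvb and 5.97 in SvbRep, and was called in SvbAct against both (adjusted p = 0.0303 and 0.0177). Its SvbRep libraries ran from 0 to 13.4 CPM and overlapped those of SvbAct. Notch itself, Su(H), E(spl)mbeta-HLH, peb, pnt, sd, yki and cad were among the 13 with no call. The medians over the 20 lay between -0.23 and 0.09 on the log2 scale.

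**Figure D4:**
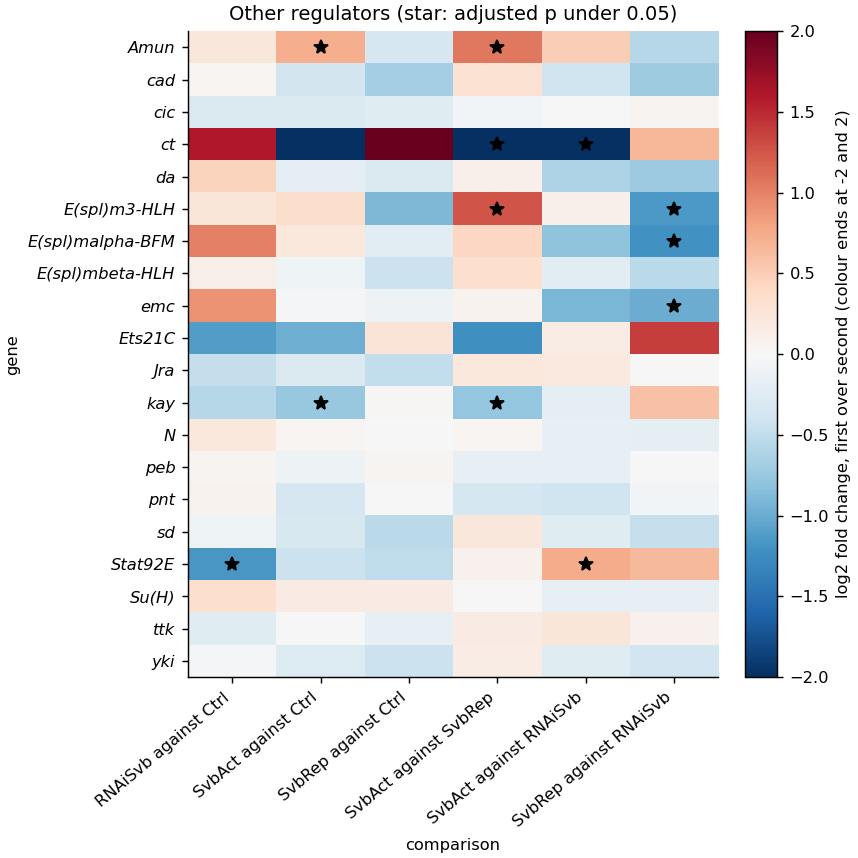
Log2 fold change (colour, ending at -2 and 2) of the 20 other progenitor regulators tested, in the 6 comparisons, with a star where the adjusted p was under 0.05. Stars stand on 7 genes, among them Stat92E at -1.16 in RNAiSvb against Ctrl, and none stands in SvbRep against Ctrl. The dark cells of ct come from levels of at most 5.97 CPM on average.

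Of 10 progenitor markers 6 had a row, and 4 of these are factors described here, so they do not check the cell type independently. Su(H) and E(spl)mbeta-HLH, which are not among those factors, were not lower in RNAiSvb than in Ctrl. They stood at 20.9 against 16.6 CPM and 446.5 against 411.5 CPM, with no call. Markers of other gut cells moved with some of the differences. The sum over 10 enterocyte markers, all with a row and none at 0 throughout a group, ran from 893 to 1088 CPM in Ctrl and from 507 to 617 in RNAiSvb. It ran from 677 to 965 in SvbAct and from 1178 to 1320 in SvbRep. Of 9 tested, 2 were lower in RNAiSvb than in Ctrl, beside 6.66% of all genes. These were the brush border myosin Myo31DF (241.1 against 550.4 CPM, adjusted p = 0.000608) and the factor GATAe (208.4 against 343.7 CPM, adjusted p = 0.015). Myo31DF alone made up 39.6% to 69.2% of the sum in a library. Without it, the sum was 281 to 350 CPM in RNAiSvb, below all Ctrl libraries (405 to 547.5), while SvbRep (396.5 to 521) overlapped Ctrl. GATAe, at 208.4 CPM in RNAiSvb and 343.7 in Ctrl, held much of this remaining sum. Myo61F had nearly equal means in those groups (64.8 and 64.3 CPM). The median log2 fold change of the 9 was -0.07 in RNAiSvb against Ctrl, and 6 of them lay below 0. In SvbRep against Ctrl it was -0.26, opposite in sign to the difference in the sum, and again 6 of 9 lay below 0.

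Myo31DF was higher in SvbRep (785.4 CPM) than in RNAiSvb (adjusted p = 1.94e-05) and than in SvbAct (397.1 CPM, adjusted p = 0.0035). It was also higher in SvbAct than in RNAiSvb (adjusted p = 0.0265). Myo61F, a second brush border myosin, stood at 148.4 CPM in SvbRep, above RNAiSvb (64.8 CPM, adjusted p = 0.0384) and SvbAct (57.1 CPM, adjusted p = 0.0215). Over the 9 markers the median log2 fold change of SvbAct against SvbRep was 1.62, opposite in sign to these myosins, and 5 of them lay above 0 with no call. Against Ctrl, 0 of 9 were called in SvbAct by edgeR's quasi-likelihood test and 0 by DESeq2, with 2 at an unadjusted p under 0.05. In SvbRep these counts were 0, 1 (Myo61F) and 3.

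The 11 enteroendocrine markers summed to between 36.4 and 97.6 CPM in RNAiSvb, above all Ctrl libraries (6.74 to 28.4). They summed to 11.4 to 52.3 CPM in SvbAct and 5.60 to 15.3 in SvbRep. NPF and Mip were at 0 in all Ctrl libraries, Mip also in RNAiSvb and SvbRep, and CCHa1 in SvbAct. Among them NPF was called higher in SvbAct (6.38 CPM, libraries from 0.379 to 14.2) than in Ctrl (adjusted p = 0.041) and SvbRep (adjusted p = 0.0466). CCHa1 was called lower in SvbAct than in RNAiSvb (2.41 CPM, adjusted p = 0.0485). In RNAiSvb against Ctrl 0 of 8 tested were called by edgeR's quasi-likelihood test, 3 had an unadjusted p under 0.05, and DESeq2 called pros and Orcokinin. The fate factor pros stood at 19.0 CPM there and at 5.41 CPM in Ctrl, with an adjusted p of 0.0914 by edgeR.

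The 9 muscle markers summed to 31.7 to 79.3 CPM in Ctrl, 14.4 to 21.6 in RNAiSvb, 30.7 to 40.7 in SvbAct and 17.0 to 29.2 in SvbRep, with Mlc1 at 0 in SvbAct. Mhc was lower in SvbRep (1.12 CPM) than in Ctrl (11.5 CPM, adjusted p = 0.0336). wupA was higher in SvbAct (8.75 CPM) than in SvbRep (0.0927 CPM, adjusted p = 0.00939) and RNAiSvb (0.485 CPM, adjusted p = 0.0347). Of 5 hemocyte markers 2 had a row, Hml was at 0 in every library, and their sum stayed between 10.3 and 38.7 CPM. The part of these other cells in the differences of the factors was not tested.

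**Figure D5:**
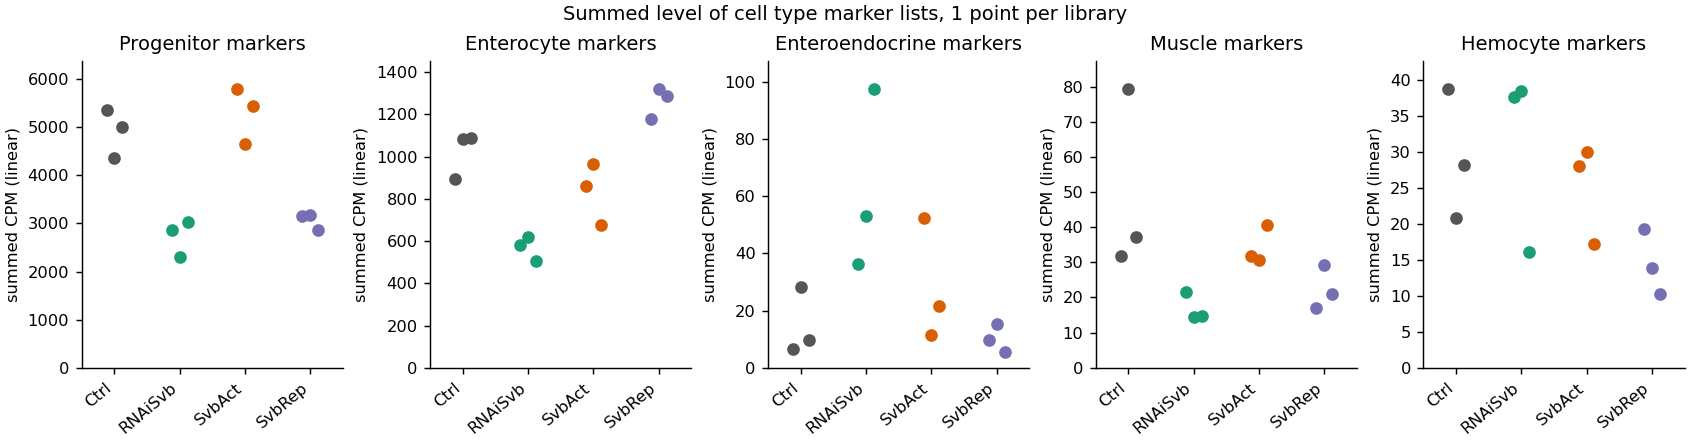
Summed level of 5 marker lists in CPM (linear axes), 1 point per library, by genotype. The progenitor list, which holds 4 of the factors described here and is no independent measure of them, sums to 4369 to 5351 in Ctrl and 2298 to 3024 in RNAiSvb. Of that list, Su(H), E(spl)mbeta-HLH and Sox21a had higher means in RNAiSvb than in Ctrl, with no call. The sum of the enterocyte list, of which Myo31DF makes up 39.6% to 69.2%, is lowest in RNAiSvb and highest in SvbRep.

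The genes whose pattern over the 12 libraries was most like that of each factor were found by Pearson's r of log2 CPM, given as a description since the libraries share group means and depth. For zfh2 they were CG10863 (r = 0.955), CG2841 (0.955) and Lrch (0.945), and for klu CG30460 (0.961), Sema1a (0.957) and Doa (0.933). For Sox100B they were nocte (0.952), Inos (0.944) and Wdr59 (0.944). For sna they were Prip (0.966), promL (0.952) and Rok (0.951). Sox21a had weaker matches in bi (0.904), alphaTub84D (0.904) and kud (0.889), of which bi was scarce, with group means from 1.43 to 2.12 CPM.

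The group means of these matches followed the order of their factor in some cases and not in others. CG2841 went from 202 CPM in Ctrl to 35.1 in RNAiSvb, 331.5 in SvbAct and 44.0 in SvbRep, the order of zfh2. Prip, an aquaporin, stood at 21.2 CPM in Ctrl, 30.3 in RNAiSvb, 5.51 in SvbAct and 85.1 in SvbRep, the order of sna. Inos, which makes inositol phosphate, stood at 536 CPM in Ctrl, 106.8 in RNAiSvb, 659 in SvbAct and 345 in SvbRep, an order that differed from that of Sox100B in the highest pair. Doa, at 2112 CPM in Ctrl and 2174 in SvbAct, differed from klu in the same way. For deviations from the group means, r was 0.54 for CG2841, 0.35 for Lrch, 0.91 for Prip, 0.64 for Inos and 0.65 for Doa with their factors. For Sox21a it was 0.9 with bi, 0.91 with alphaTub84D and 0.94 with kud.

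esg and sna are neighbours on chromosome arm 2L. They lie 140 kb apart in the annotation, and the tested genes nearest to them were described for the same groups. The nearest tested gene to sna, lace, 20.9 kb away, encodes a subunit of the first enzyme of sphingolipid synthesis. It stood at 241 CPM in Ctrl, 110.7 in RNAiSvb, 154 in SvbAct and 272 in SvbRep.

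lace fell in RNAiSvb against Ctrl by 1.12 on the log2 scale (adjusted p = 0.00101), while sna had no call there. It was lower in SvbAct than in SvbRep (log2 fold change -0.82, adjusted p = 0.0139), as sna was. lace was also higher in SvbRep than in RNAiSvb (log2 fold change 1.295, adjusted p = 0.000282), where sna had no call (0.197). CG15255, the next tested gene on that side, 132 kb from sna, was scarce (5.48 CPM in Ctrl) and had no call in any comparison. On the other side of esg, Cul3, 61.8 kb away, had no call in any comparison. yuri, 69.2 kb from esg, was lower than in Ctrl (168 CPM) in SvbAct (94.4 CPM, adjusted p = 0.0273) and in SvbRep (93.4 CPM, adjusted p = 0.0416).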

How the data were processed

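The deposited table gives the authors' whole-number read counts per gene for 12 libraries. The submitters' processing notes name FastQC 0.11.5, STAR 2.5.2b, HTSeq 0.6.0, edgeR and the dm6 build. Log2 fold changes, unadjusted p-values and a call score of 1, 0 or -1 were deposited by the authors for 5 comparisons, per the file headers, and are used only where named. Symbols and positions were taken from Ensembl's BDGP6.54 annotation, and 8686 of 8802 identifiers had a symbol.

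Counts were fitted in R 4.3.3 with edgeR 4.0.16 (TMM scaling, filterByExpr, glmQLFit with robust estimation, 1 mean per group over 12 libraries). Comparisons were made by edgeR's quasi-likelihood F test, with p-values adjusted by Benjamini-Hochberg over 8069 genes and a threshold of 0.05. CPM used TMM-scaled totals. The SD is over 3 replicates. The likeness of genes used log2 CPM with a prior count of 2. Reads carried no molecular identifiers, so the limit of 3 counts covers counting error only.

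Members and gene lists were chosen with earlier results of these data known. Named genes were the members, ovo, list genes with an adjusted p under 0.05, the 3 genes most like each member and the 2 tested genes nearest each side of esg and sna. Tdg was added for its exon overlap, and gro, pros and Orcokinin were named after their values were seen. Same-numbered libraries of SvbRep and Ctrl deviated together from their group means in all 3 pairs (r = 0.108 to 0.256). Only this comparison met the limit set on its lowest r, so the replicate block is given for it. All 3 pairs were also positive for RNAiSvb against Ctrl (0.062 to 0.232), SvbAct against Ctrl (0.0186 to 0.106) and SvbAct against RNAiSvb (0.0105 to 0.0923). Alternatives were the scaling, the filter, DESeq2 1.42.0, a fit of only the groups compared, the block, robust estimation and each library left out. A likelihood ratio test was chosen after seeing the data. Promoter sequences were not analysed here.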

Additional observations from a re-analysis of the deposited data

How the results depend on the processing

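The direction and call of zfh2, klu and Sox100B in RNAiSvb against Ctrl, and of zfh2 and sna in SvbAct against SvbRep, held under all 20 settings. Where counts moved, the cause was not tested. With DESeq2, SvbAct against Ctrl had 612 genes and 1 factor called (360 and 0 as reported), and SvbRep against Ctrl 317 genes and 2 factors (168 and 1 as reported). The likelihood ratio test gave 599 genes and 1 factor, and 310 genes and 2 factors. With only the groups compared, RNAiSvb against Ctrl had 1091 genes (686 as reported), SvbAct against SvbRep 340 (582 as reported), and SvbRep against RNAiSvb 0 factors (1 as reported). In that fit sna did not pass the filter on low counts in SvbAct against Ctrl or in SvbAct against RNAiSvb, so it was not tested there.

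With the replicate number as a block, SvbRep against Ctrl had 290 genes and 2 factors called, and without robust estimation 2 factors. In SvbRep against RNAiSvb the block gave 2 factors, with sna at a log2 fold change of 2.96 (adjusted p = 0.017). That pair did not meet the limit set on the lowest r (r = -0.0437 to 0.0616). The labels do not say whether same-numbered libraries of different groups share a day. The block changed no other call of a factor. Leaving out 1 library gave 407 to 932 genes in RNAiSvb against Ctrl (3 factors each time), 175 to 509 in SvbAct against Ctrl (0 factors), and 54 to 242 in SvbRep against Ctrl (0 to 2 factors). It gave 355 to 599 in SvbAct against SvbRep (2 factors), 453 to 941 in SvbAct against RNAiSvb (2 to 4 factors), and 407 to 904 in SvbRep against RNAiSvb (0 to 1 factor).

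Directions turned only for differences with no call. Sox21a in SvbRep against Ctrl (-0.01 as reported on the log2 scale) was 0.02 with RLE factors and with DESeq2, 0.03 with upper quartile scaling and with only these groups, and 0.01 without the filter. Sox100B in SvbAct against Ctrl was 0 with upper quartile scaling, and Sox21a in SvbAct against SvbRep 0.01 with the block. With 1 library left out, Sox21a ranged from -0.02 to 0.41 in RNAiSvb against Ctrl, -0.3 to 0.14 in SvbAct against Ctrl, -0.21 to 0.36 in SvbRep against Ctrl, -0.45 to 0.12 in SvbAct against SvbRep and -0.4 to 0.18 in SvbRep against RNAiSvb. In SvbAct against Ctrl, klu ranged from -0.24 to 0.01 and Sox100B from -0.12 to 0.13. No scaling moved the median of all genes by over 0.1. For sna, 4 of the 12 libraries hold no count, and the limit on its level there is that of 3 counts.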
